A study of Mus musculus with 47 samples.

Results

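Cortical interneurons are the inhibitory nerve cells of the cerebral cortex, and the genes described here are 10 that mark them: Pvalb, Syt2, Sst, Npy, Vip, Cck, Gad1, Gad2, Slc32a1 and Lhx6. They were chosen by name, and each symbol was matched to an Ensembl identifier with the GENCODE annotation of the mouse genome build GRCm38. All 10 were found among the 54281 genes with TPM values (transcript levels scaled to gene length and to the library), and all 10 reached the mean of 1 TPM that a gene needed for testing.

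Interneurons make the transmitter GABA, load it into vesicles and release it onto other neurons, and they fall into classes that are told apart by a calcium-binding protein or a neuropeptide. Parvalbumin cells fire fast and contact the cell bodies of excitatory neurons, somatostatin cells contact their dendrites, and VIP cells largely inhibit other interneurons. Parvalbumin cells are also the neurons that most often carry perineuronal nets, the matrix coats that microglia are thought to help turn over.

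Bulk cortex of male C57BL/6J mice, about 3 months old and wild type, was sequenced with 1 library per mouse after 10 days on control chow (23 mice) or on chow with 1200 ppm PLX5622 (24 mice). PLX5622 inhibits CSF1R, the receptor on which microglia depend, and other CSF1R-dependent macrophages can be reached by it too. Mice of each diet were killed at Zeitgeber times ZT2, ZT6, ZT10, ZT14, ZT18 and ZT22, counted in hours from lights on, with 4 mice per group and 3 in the control group at ZT14. Libraries held 16597987 to 27626161 counts, and PLX5622 libraries were the deeper (median 21476967.5, against 18314954 for control libraries).

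The tissue and the treatment were checked against marker lists. All 8 microglia genes, among them Csf1r, Cx3cr1, P2ry12, Tmem119, C1qa, Aif1 and Ctss, were lower with PLX5622 in limma's test, and their summed level was 452 ± 55.1 TPM (SD, n = 23) in control mice and 51.8 ± 20.6 TPM (SD, n = 24) in PLX5622 mice. C1qa, a complement gene, was lower by a log2 difference of -3.74. The 10 markers of excitatory cortical neurons, led by Nrgn and Camk2a, summed to 3892 ± 552 and 3605 ± 318 TPM, and 0 of the 10 differed between diets. Markers of neighbouring regions were present as well and varied between mice. The 10 striatum genes, of which Ppp1r1b was the most abundant, summed to between 158 and 755 TPM in control mice and between 221 and 685 TPM in PLX5622 mice. The 5 thalamus genes, led by Ramp3 and Slc17a6, summed to between 31.8 and 106 TPM over all mice, the 6 hypothalamus genes, led by Oxt and Avp, to between 3.21 and 333 TPM, and the 7 hippocampus genes, led by Spink8 and C1ql2, to between 12.8 and 51.0 TPM. None of these 4 lists held a gene that differed between diets (0 of 10, 0 of 5, 0 of 5 and 0 of 3 tested).

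Diet was not followed by a difference past the threshold in any of the 10 interneuron markers. Limma, fitted to log2(TPM + 1) of 14580 genes with diet and the 24-h time course as terms, called 503 genes (3.45%) at a Benjamini-Hochberg adjusted p under 0.05, with 127 higher and 376 lower in PLX5622 mice, and 0 of the 10 markers. Before adjustment, 1 of the 10 (Vip) had a p under 0.05, against 16.2% of all genes tested. EdgeR and DESeq2 on the counts also called 0 of the 10, with 2 of 10 (Sst and Vip) at an unadjusted p under 0.05 in each, against 20.4% and 20.7% of all genes tested. Among the alternative fits, 1 called markers, that with 3 principal components of the residuals as covariates, in which Sst and Vip passed (values under Vip). The balance of calls also turned in that fit, with 1036 of 1679 genes higher in PLX5622 mice (61.7%), against 25.2% in the main fit. The log2 difference was above 0 in 6 of the 10 markers and in 64.8% of all genes, and its median was 0.06 over the markers and 0.03 over all genes. At no Zeitgeber time did every mouse on one diet lie above every mouse on the other for any of the markers, whereas 19.4% of all genes tested were separated in this way at 1 or more of the 6 times. A p that misses the threshold does not show that levels were equal, so the intervals are given with each gene. In bulk tissue, fewer cells of a type and less RNA per cell cannot be told apart.

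**Figure D1:**
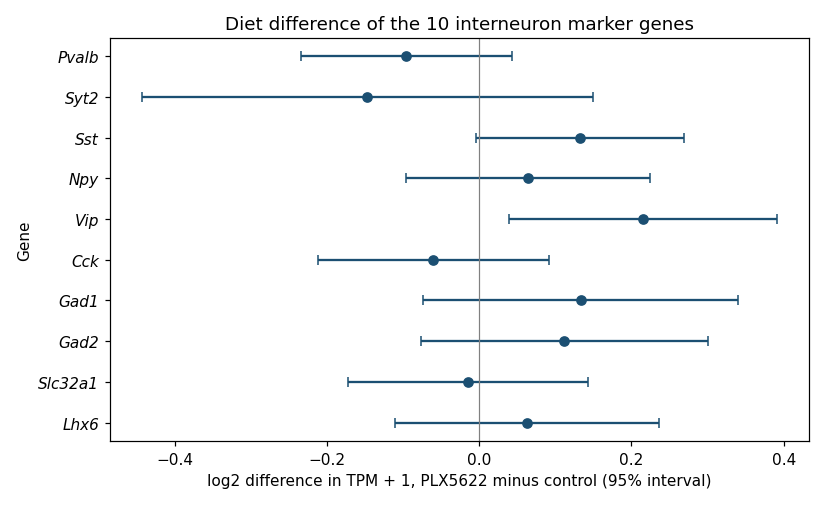
Log2 difference in TPM + 1 between PLX5622 and control mice for each of the 10 markers (x axis), with points for limma's estimate and bars for the 95% confidence interval, over 24 and 23 mice. The interval of Vip lies above 0 before adjustment, and the intervals of the other 9 genes include 0.

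The markers of parvalbumin cells were Pvalb and Syt2. Pvalb (ENSMUSG00000005716, chr15:78191114-78206400, minus strand) encodes parvalbumin, a calcium buffer of fast-spiking cells. It lay between 80.3 and 179 TPM in control mice, with a median of 119, and between 82.7 and 163 TPM in PLX5622 mice, with a median of 107. The 2 ranges overlapped almost entirely, and 0 of the 24 PLX5622 mice were above or below every control mouse. The log2 difference was -0.10 (SE 0.07, 95% interval -0.23 to 0.04, limma adjusted p = 0.508), and the mean was lower with PLX5622 at 4 of the 6 times. In fold terms the interval ran from 0.850 to 1.03.

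Syt2 (ENSMUSG00000026452, chr1:134646677-134762593, plus strand) encodes synaptotagmin 2, a calcium sensor for transmitter release in the terminals of parvalbumin cells. It lay between 9.96 and 47.9 TPM in control mice, with a median of 22.4, and between 9.92 and 44.1 TPM in PLX5622 mice, with a median of 20.1. It was the most variable marker in TPM: the highest library held 4.83 times the level of the lowest, and its within-group SD of 0.54 on the log2 scale exceeded that of 96.0% of the genes tested. TPM and counts of Syt2 did not always go together. Control mice 1 and 3 at ZT18 had 10.6 and 20.9 TPM, but counts of 854 and 713 in libraries of 20524980 and 16597987 counts. The log2 difference of -0.15 (SE 0.15, 95% interval -0.44 to 0.15, limma adjusted p = 0.662) was no larger than its standard error. The highest Syt2 levels were in control mouse 2 at ZT10 (47.9 TPM) and PLX5622 mouse 3 at ZT14 (44.1 TPM). The same control mouse had the highest Pvalb level (179 TPM) and the lowest sum of striatum genes (158 TPM). Syt2 overlaps Ppp1r12b, a gene on the opposite strand with a mean of 29.1 TPM, and whether the counting used strand is not given in the sources used here.

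The 4 neuropeptide genes came next. Sst (ENSMUSG00000004366, chr16:23889573-23890958, minus strand) encodes somatostatin. It lay between 280 and 524 TPM in control mice, with a median of 420, and between 349 and 570 TPM in PLX5622 mice, with a median of 460. The lower end of the range was held by control mice and 3 PLX5622 mice were above every control mouse, but most mice of both diets shared the same range. The log2 difference was 0.13 (SE 0.07, 95% interval -0.00 to 0.27, limma adjusted p = 0.327), and the mean was higher with PLX5622 at 5 of the 6 times.

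Npy (ENSMUSG00000029819, chr6:49822710-49829507, plus strand) encodes neuropeptide Y, which is made by many somatostatin cells and by neurogliaform cells. It lay between 90.4 and 225 TPM in control mice and between 125 and 214 TPM in PLX5622 mice, with medians of 160 and 171. The PLX5622 range fell inside the control range, and the log2 difference was 0.06 (SE 0.08, 95% interval -0.10 to 0.22, limma adjusted p = 0.735).

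Vip (ENSMUSG00000019772, chr10:5639218-5647617, plus strand) encodes vasoactive intestinal peptide. It lay between 13.97 and 32.6 TPM in control mice, with a median of 24.1, and between 16.9 and 35.1 TPM in PLX5622 mice, with a median of 29.4. The diets overlapped, with 3 PLX5622 mice above every control mouse. At ZT2 the 4 control mice had 16.5, 13.97, 28.6 and 30.6 TPM and the 4 PLX5622 mice 32.5, 24.8, 30.9 and 30.5 TPM, so that 2 control mice were low and 2 were level with the PLX5622 mice. At ZT10 the control mice had 18.5, 20.7, 27.3 and 32.0 TPM and the PLX5622 mice 30.9, 16.9, 33.6 and 33.1 TPM, and here the lowest mouse was on PLX5622. The log2 difference was the largest of the 10 markers at 0.22 (SE 0.09, 95% interval 0.04 to 0.39), a fold of 1.16, with a mean higher in PLX5622 mice at 5 of the 6 times. Its unadjusted p was 0.0176 and its limma adjusted p 0.192. With 3 principal components of the residuals as covariates, which take out variation that many genes share between mice, Vip (adjusted p = 0.0132) and Sst (adjusted p = 0.0353) passed, in a fit that called 1679 genes (11.5%). Over the 12 alternative fits that kept every mouse, the adjusted p ran from 0.0132 to 0.314 for Vip and from 0.0353 to 0.507 for Sst.

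Cck (ENSMUSG00000032532, chr9:121489824-121495694, minus strand) encodes cholecystokinin, which marks a class of basket cells but is also made by many excitatory cortical neurons. It lay between 570 and 1327 TPM in control mice and between 656 and 1140 TPM in PLX5622 mice, with medians of 898 and 853. The PLX5622 mice again lay within the control range, and the log2 difference was -0.06 (SE 0.08, 95% interval -0.21 to 0.09, limma adjusted p = 0.739).

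The 3 genes of GABA synthesis and loading are shared by all interneuron classes. Gad1 (ENSMUSG00000070880, chr2:70553072-70602014, plus strand) and Gad2 (ENSMUSG00000026787, chr2:22622205-22693874, plus strand) encode the glutamate decarboxylases, the first spread through the cell and the second enriched in terminals. Gad1 lay between 73.0 and 180 TPM in control mice, with a median of 121, and between 77.9 and 199 TPM in PLX5622 mice, with a median of 123. At ZT2 the control mice had 73.0, 91.8, 82.4 and 125 TPM and the PLX5622 mice 95.3, 137, 199 and 141 TPM, so that 3 of the 4 control mice were below every PLX5622 mouse at that time. At ZT6 the order in TPM was not the same, with 86.2, 89.8, 142 and 137 TPM in control mice and 107, 101, 110 and 112 TPM in PLX5622 mice. The ZT6 counts of Gad1 were 3945, 4093, 4839 and 4446 in control mice and 5828, 5950, 5917 and 5427 in PLX5622 mice. These counts are not scaled to depth, and the PLX5622 libraries were the deeper. The change of order between ZT2 and ZT6 is thus given for TPM alone. Over all times the log2 difference of Gad1 was 0.13 (SE 0.10, 95% interval -0.07 to 0.34, limma adjusted p = 0.541), with 4 PLX5622 mice above every control mouse.

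Gad2 lay between 26.4 and 56.3 TPM in control mice and between 27.3 and 62.3 TPM in PLX5622 mice, with medians of 39.2 and 47.3. The medians were further apart than the means (40.8 and 44.6 TPM), and the ranges overlapped except for 3 PLX5622 mice at the top. The log2 difference was 0.11 (SE 0.09, 95% interval -0.08 to 0.30, limma adjusted p = 0.582). Slc32a1 (ENSMUSG00000037771, chr2:158610767-158615748, plus strand) encodes the transporter that fills vesicles with GABA. It lay between 38.4 and 81.5 TPM in control mice and between 42.8 and 86.3 TPM in PLX5622 mice, with medians of 56.6 and 57.6. The diets were nearly superimposed, and the log2 difference of -0.01 (SE 0.08, 95% interval -0.17 to 0.14, limma adjusted p = 0.946) changed sign when any 1 of 5 mice was left out. An antisense gene, Gm14205, overlaps Slc32a1 and has a mean of 11.6 TPM but a mean count of 0.234 reads, and the antisense Gad1os overlaps Gad1 with a mean of 0.285 TPM.

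Lhx6 (ENSMUSG00000026890, chr2:36081953-36105408, minus strand) encodes the transcription factor that specifies parvalbumin and somatostatin cells. It lay between 4.54 and 13.2 TPM in control mice and between 5.23 and 11.6 TPM in PLX5622 mice, with medians of 7.60 and 8.01. The PLX5622 mice lay inside the control range. The log2 difference was 0.06 (SE 0.09, 95% interval -0.11 to 0.24, limma adjusted p = 0.768), and it was -0.01 with edgeR and with DESeq2 on the counts.

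The order of the levels was the same in nearly all mice except for 2 neighbouring pairs, Gad1 with Pvalb and Vip with Syt2. Cck had the highest mean over the 47 mice (869 TPM), followed by Sst (432 TPM) and Npy (165 TPM), and each of Cck and Sst exceeded the next gene in 47 of 47 mice. Npy exceeded Gad1 (124 TPM) in 44 of 47 mice. Gad1 exceeded Pvalb (110 TPM) in 32 of 47. Pvalb exceeded Slc32a1 (58.4 TPM) and Slc32a1 exceeded Gad2 (42.7 TPM) in 47 of 47 mice, Gad2 exceeded Vip (25.8 TPM) in 44 of 47, Vip exceeded Syt2 (22.7 TPM) in 29 of 47, and Lhx6 (8.06 TPM) was below Syt2 in 47 of 47. The within-group SD on the log2 scale had a median of 0.31 over the markers and 0.21 over all genes tested.

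Time of day was tested next, with the question of whether the markers follow a 24-h rhythm and whether that rhythm differs between diets. Over both diets, limma's F test of the cosine and sine terms called 767 genes (5.26%) and 0 of the 10 markers, with 0 of 10 at an unadjusted p under 0.05 against 19.8% of all genes. EdgeR and DESeq2 called 2007 and 2336 genes and 0 of the 10 markers, again with 0 of 10 at an unadjusted p under 0.05, against 29.1% and 29.9% of all genes. The smallest adjusted p among the markers was 0.358, for Slc32a1, whose fitted amplitude was 0.12 on the log2 scale (SE 0.06). The amplitudes of the 10 markers ran from 0.05 (Npy) to 0.12 (Gad1). Slc32a1 had its highest group mean at ZT14 and its lowest at ZT6 in both diets (66.8 and 50.9 TPM in control mice, 69.3 and 52.2 TPM in PLX5622 mice). Syt2 had its highest mean at ZT14 in PLX5622 mice (30.8 TPM), where the 4 mice had 21.6, 20.1, 44.1 and 37.5 TPM. That mean rests on the 2 higher mice, and the other 2 were within the range of the remaining times.

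Within each diet, JTK_CYCLE, a rank test against cosine-shaped patterns, called 6 of 14580 genes (0.0412%) in control mice and 34 (0.233%) in PLX5622 mice. It called 0 of the 10 markers in either diet, with 0 of 10 at an unadjusted p under 0.05 in both, against 5.25% of all genes in control mice and 6.84% in PLX5622 mice. Limma's F test within each diet also called 0 of 10, beside 36 genes in control mice and 135 in PLX5622 mice. The smallest unadjusted JTK_CYCLE p was 0.146 for Gad1 in control mice and 0.457 for Vip in PLX5622 mice. Gad1 ran from 93.0 TPM at ZT2 to 138 TPM at ZT10 in control mice, and from 107 TPM at ZT6 to 154 TPM at ZT14 in PLX5622 mice. A difference in rhythm between diets, tested by the interaction of diet with both time terms, was called by limma for 0 of 14580 genes (0%) and 0 of the 10 markers. At an unadjusted p under 0.05 limma had 669 genes and 0 markers, while edgeR had 846 genes and DESeq2 890 genes, each with 1 marker (Sst) and 0 calls after adjustment. Sst had an amplitude of 0.14 (SE 0.07) in control mice and 0.04 (SE 0.07) in PLX5622 mice, with an interaction p of 0.230 in limma.

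**Figure D2:**
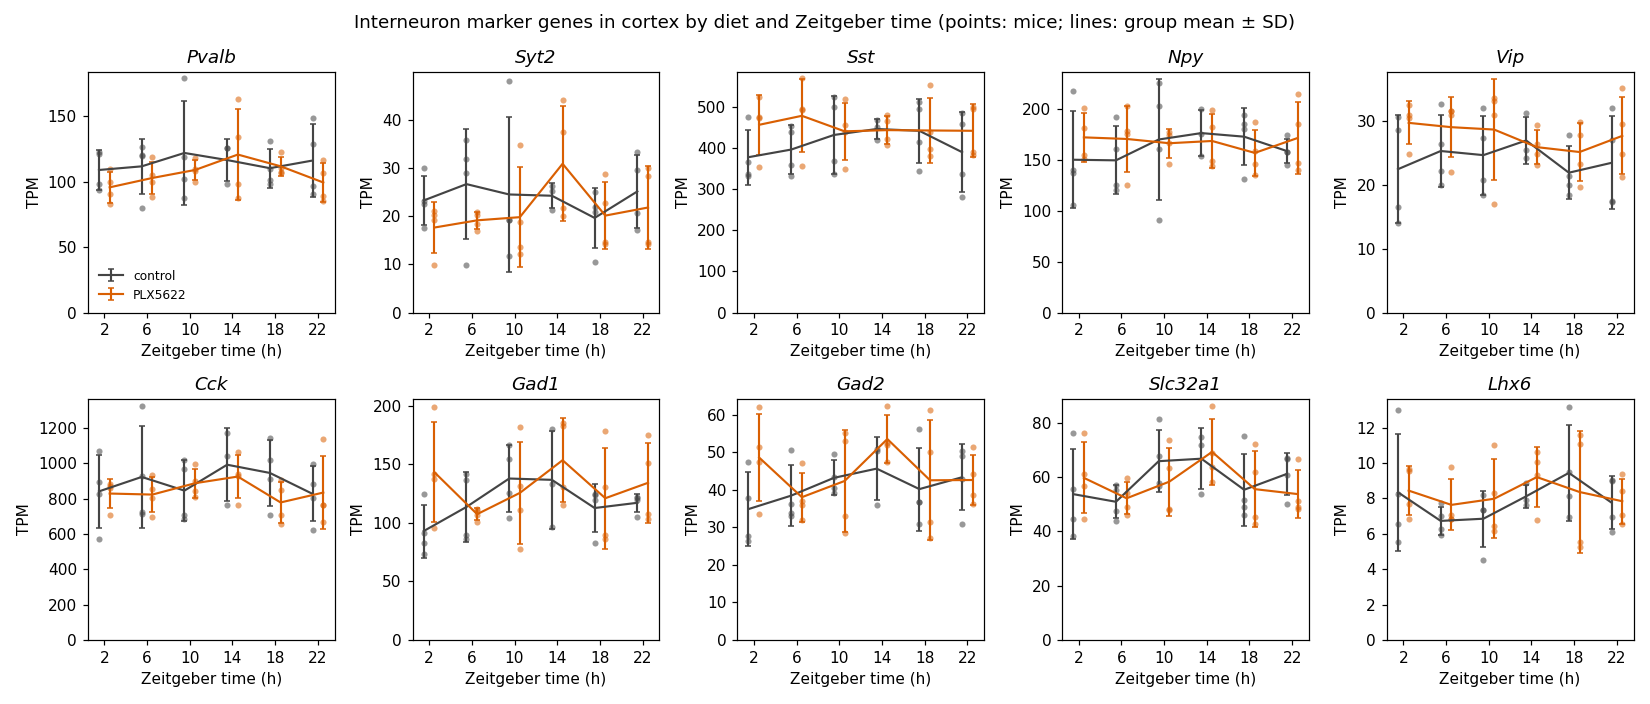
TPM (y axis, from 0) of each of the 10 markers against Zeitgeber time in hours (x axis), with points for single mice and lines for the group mean ± SD of 4 mice, or 3 in control mice at ZT14. Control and PLX5622 mice overlap at all 6 times for all 10 genes, and the widest spread relative to the level is that of Syt2.

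Further genes of the same cells were followed in 5 lists with 43 genes, of which 41 were tested. Limma called 0 of them higher and 3 lower with PLX5622, and 1 with a 24-h rhythm. In the list of other parvalbumin cell genes, Cplx1, a complexin that clamps and promotes vesicle fusion and is also found in other neurons, was 479 ± 32.0 TPM in control mice and 444 ± 36.3 TPM in PLX5622 mice (SD, n = 23 and 24). Its log2 difference was -0.11 (SE 0.03, limma adjusted p = 0.0450), 9 of the 24 PLX5622 mice were below every control mouse, and the call was kept in 28 of the 59 alternative fits. The other 6 genes of that list did not pass, and the list's median log2 difference was 0.08.

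The lists for somatostatin cells and for VIP, CCK and LAMP5 cells held no gene past the threshold for diet or for time (0 of 6 and 0 of 11 tested). Calb1, a calcium buffer, and Elfn1, a synaptic adhesion protein of somatostatin cells, had log2 differences between diets of -0.00 and -0.02. Lamp5, a membrane protein of neurogliaform cells, was 87.2 ± 24.2 and 89.8 ± 14.3 TPM, and Calb2, the calretinin gene, was 37.8 ± 20.3 and 36.9 ± 19.9 TPM. The diets overlapped for these genes, and the median log2 difference was 0.04 in the somatostatin cell list and 0.12 in the VIP, CCK and LAMP5 list.

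Among the 12 tested transcription factors of interneurons, 2 were lower with PLX5622. One of them, Maf, was 7.90 ± 1.17 TPM in control mice and 5.85 ± 0.946 TPM in PLX5622 mice, with 12 of the 24 PLX5622 mice below every control mouse and a log2 difference of -0.38 (SE 0.05, limma adjusted p = 4.05e-07). Its call was kept in 59 of 59 alternative fits. Maf acts in interneurons from the medial ganglionic eminence and is also made by microglia and macrophages, whose 8 markers were lower in the same mice, and the part of those cells in the result was not tested. Of the 12 tested factors, 10 did not pass.

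Of the 5 genes of GABA uptake and breakdown, 0 differed between diets and 1 had a 24-h rhythm. Slc6a13, a GABA transporter found mostly in the meninges, was 9.08 ± 2.40 TPM in control mice and 8.96 ± 2.13 TPM in PLX5622 mice. Its fitted amplitude over both diets was 0.27 on the log2 scale with a peak 0.652 h after lights on (limma F test, adjusted p = 0.0108), and the call was kept in 59 of 59 alternative fits. It has a role in GABA uptake but is not a marker of interneurons.

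The lists of other cell types give the setting of these values. Of 8 genes of neurons in general, led by Snap25 and Eno2, 0 differed between diets. Gfap, the astrocyte filament gene, rose from 149 ± 36.8 to 218 ± 44.97 TPM (log2 difference 0.56, limma adjusted p = 5.49e-06), as 1 of 6 astrocyte genes. Cldn11, a myelin tight junction gene, rose from 112 ± 19.9 to 133 ± 21.9 TPM (log2 difference 0.24, limma adjusted p = 0.0376), as 1 of 6 oligodendrocyte genes, and the call was kept in 40 of 59 alternative fits. Of 8 choroid plexus genes, 4 were higher with PLX5622 (Ttr, Kl, Kcne2 and Sostdc1). Their list summed to 539 ± 303 TPM in control mice and 807 ± 256 TPM in PLX5622 mice, nearly all of it from Ttr, the transthyretin gene, and only the call of Sostdc1 was kept in all 58 of its alternative fits, while Ttr kept it in 25 of 59, Kl in 21 of 58 and Kcne2 in 15 of 58.

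Mice of one group differed from each other in these markers, and some of the markers moved together. After each group's mean was subtracted from log2(TPM + 1), Pearson's r was computed for the 45 pairs of markers over the 47 mice, with 100000 permutations within groups. Of the 45 pairs, 26 passed a Benjamini-Hochberg adjusted p under 0.05, all with a positive r. The median r was 0.46 over the pairs, but a marker's median r with the other genes tested was itself 0.21 on this scale. On log2 CPM of the counts (counts scaled to the library total with TMM), where that median was -0.02, 17 pairs passed, 16 of them shared with the TPM scale, and the median r was 0.25. The mice of each group are numbered, and the markers' levels moved with that number: on average, 1 of the 10 markers lay above its group mean in mice numbered 1 and 1 of 10 in those numbered 2, against 8 of 10 in those numbered 3 and 9 of 10 in those numbered 4. The same share over all genes tested is not given here, so the shift is not shown to be particular to the markers. The 10 markers are also related to each other and are not separate observations. With the number taken out of the levels as well, an alternative added after the data had been seen, 9 of the 45 pairs passed, all with a positive r and all among the 26, r was above 0 in 36 pairs and its median was 0.27. What the number stands for is not given in the labels. Libraries also differed in the share of counts from mitochondrial genes, from 6.46% to 10.0%. That share was 7.65% and 6.89% in the control and PLX5622 mice with the highest Syt2 levels. In those with the lowest Syt2 levels it was 9.70% and 9.39%. These mice were picked by their Syt2 levels, and not every mouse followed them. Control mouse 2 at ZT6, for one, had 28.9 TPM of Syt2 at a share of 9.73%. The part of the mitochondrial share in the relations was not tested. The pairs below passed on both scales unless stated, and their values without the number follow.

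The GABA genes formed the closest set. Gad2 and Slc32a1 had r = 0.908 and Spearman's rho = 0.915 over the 47 mice (permutation p = 1e-05 for both, the smallest the permutations can give, adjusted p = 5.6e-05), with r = 0.893 without the 2 mice farthest from the Gad2 median, 0.882 in control mice, 0.937 in PLX5622 mice, 0.887 on log2 CPM and 0.888 without the number (adjusted p = 0.000225). Gad1 and Slc32a1 had r = 0.790 and rho = 0.803 (both permutation p = 1e-05, adjusted 5.6e-05), with 0.772 without the 2 farthest mice, 0.743 and 0.838 within the diets, 0.771 on log2 CPM and 0.731 without the number (adjusted p = 0.000225). Lhx6 moved with Slc32a1 as well: its r was 0.632 and its rho 0.571 (permutation p = 0.00053 and 0.00116, adjusted 0.0018 and 0.00307), with 0.543 without the 2 farthest mice, 0.599 and 0.663 within the diets, 0.641 on log2 CPM and 0.572 without the number (adjusted p = 0.00534).

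Among the neuropeptide genes all 6 pairs passed on both scales, but only 2 of the 6, Vip with Cck and Npy with Cck, passed with the mouse number taken out. Vip and Cck had r = 0.805 and rho = 0.826 (permutation p = 1e-05 for both, adjusted 5.6e-05), with 0.814 without the 2 farthest mice, 0.851 and 0.724 within the diets, 0.766 on log2 CPM and 0.625 without the number (adjusted p = 0.00443). Npy and Cck had r = 0.768 and rho = 0.767 (permutation p = 1e-05 for both, adjusted 5.6e-05), with 0.780 without the 2 farthest mice, 0.775 and 0.751 within the diets, 0.719 on log2 CPM and 0.554 without the number (adjusted p = 0.00169). Sst and Npy had r = 0.733 and rho = 0.796 (permutation p = 1e-05 for both, adjusted 5.6e-05), with 0.730 without the 2 farthest mice, 0.678 and 0.847 within the diets and 0.639 on log2 CPM, but 0.419 without the number (adjusted p = 0.0844). The 6 peptide pairs ran from r = 0.648 to 0.805 as first computed and from 0.287 to 0.625 without the number, beside 0.764 and 0.714 for Gad1 and Gad2.

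Pvalb stood apart from these genes. Its only pair past the threshold on the TPM scale was with Syt2, with r = 0.582 and rho = 0.535 (permutation p = 0.00142 and 0.00181, adjusted 0.00355 and 0.00403), 0.504 without the 2 farthest mice, 0.648 and 0.488 within the diets, 0.490 on log2 CPM and 0.558 without the number (adjusted p = 0.00443). Its r with the other 8 markers ran from -0.0845 (Lhx6) to 0.269 (Cck). Without the 2 mice farthest from the Pvalb median it ran from -0.00523 (Lhx6) to 0.390 (Cck), with 0.372 for Npy. Within control mice it ran from -0.371 (Lhx6) to 0.238 (Cck), and within PLX5622 mice from 0.134 (Vip) to 0.482 (Npy). On log2 CPM its r with Lhx6 was -0.542 (adjusted p = 0.0111), which passed there and not on the TPM scale. Within the diets on the TPM scale that r was -0.371 in control mice and 0.264 in PLX5622 mice, and it was 0.00495 over both without the number.

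**Figure D3:**
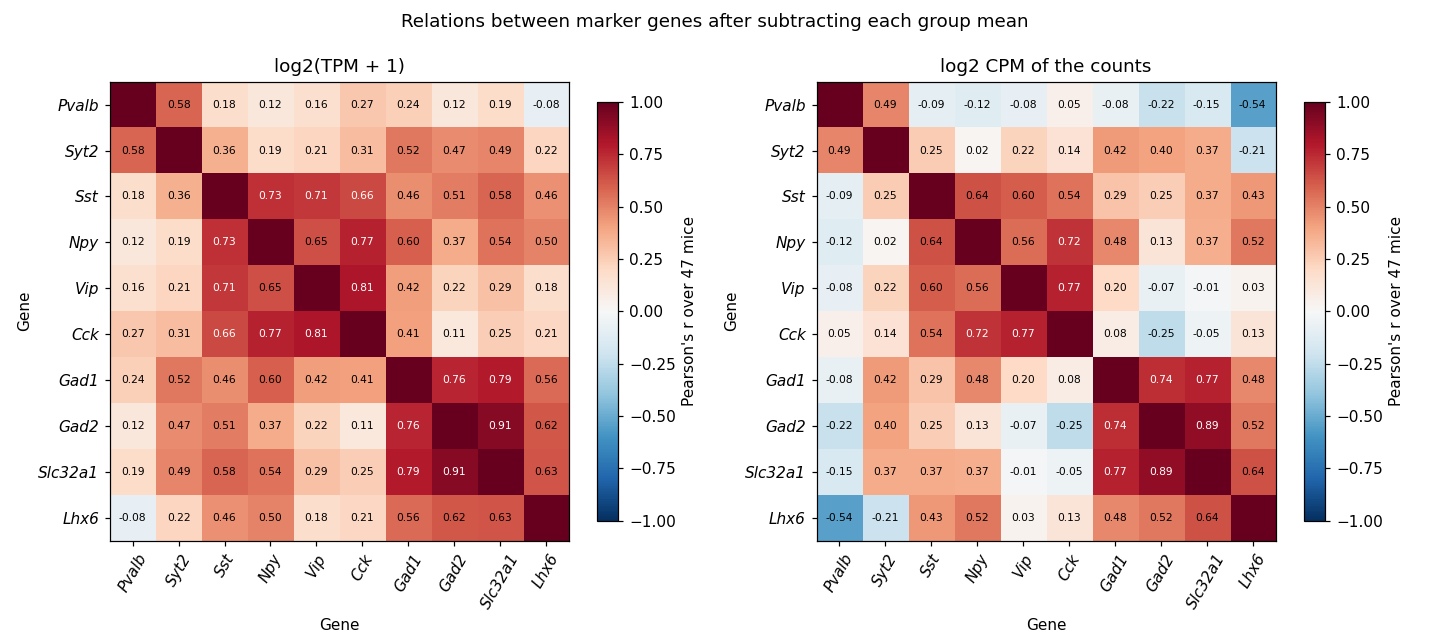
Pearson's r over 47 mice for each pair of the 10 markers (both axes are genes), after subtraction of group means, on log2(TPM + 1) at the left and on log2 CPM of the counts at the right, with red for positive and blue for negative values. The neuropeptide pairs and the pairs of Gad1, Gad2 and Slc32a1 are red on both sides, and Pvalb is pale except with Syt2 and, at the right, with Lhx6.

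Relations with the markers of other cells and regions were measured in the same way. In a family of 20 relations with the means of the striatum list and the excitatory neuron list, 10 passed on the TPM scale, 6 on log2 CPM and 4 with the mouse number taken out. Cck and the excitatory list had r = 0.822 and rho = 0.851 (permutation p = 1e-05 for both, adjusted 6.67e-05), with 0.811 without the 2 farthest mice, 0.866 and 0.764 within the diets, 0.784 on log2 CPM and 0.697 without the number (adjusted p = 0.00240). Vip, which excitatory neurons are not known for, had r = 0.735 and rho = 0.759 with the same list (permutation p = 1e-05 for both, adjusted 6.67e-05), with 0.740 without the 2 farthest mice, 0.788 and 0.658 within the diets, 0.618 on log2 CPM and 0.547 without the number (adjusted p = 0.0273). Slc32a1 had r = 0.447 and rho = 0.460 with the striatum list (permutation p = 0.00554 and 0.00368, adjusted 0.0158 and 0.0105), with 0.436 without the 2 farthest mice, 0.526 and 0.352 within the diets, 0.530 on log2 CPM and 0.496 without the number (adjusted p = 0.0131). Pvalb had r = -0.434 with the striatum list (permutation p = 0.0182, adjusted 0.0364), but rho was -0.273 (p = 0.115, adjusted 0.215), r was -0.319 without the 2 farthest mice and the adjusted p just missed the threshold at an r of much the same size on log2 CPM (-0.437, adjusted p = 0.0511) and without the number (-0.458, adjusted p = 0.0517). Within the diets it was -0.432 and -0.436. Gad1 had r = 0.105 with the striatum list (adjusted p = 0.534), with 0.279 and -0.0675 within the diets, and Gad2 had r = 0.361 (adjusted p = 0.0276), with 0.408 on log2 CPM (adjusted p = 0.0194) and 0.365 without the number (adjusted p = 0.0517). Lhx6 had r = 0.388 and rho = 0.352 with the striatum list (permutation p = 0.0116 and 0.0252, adjusted 0.0276 and 0.0560), with 0.391 without the 2 farthest mice, 0.689 in control mice but 0.0265 in PLX5622 mice, 0.573 on log2 CPM (adjusted p = 0.00592) and 0.412 without the number (adjusted p = 0.0273). Striatal neurons also use Gad1, Gad2 and Slc32a1, and the part of neighbouring tissue in these relations was not tested.

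The thalamus, oligodendrocyte and astrocyte lists were added after the data had been seen, as a family of 30 relations in which 11 passed on the TPM scale (7 positive and 4 negative), 13 on log2 CPM (3 positive and 10 negative) and 8 with the mouse number taken out (all positive). Of the 11, 7 also passed on log2 CPM and 7 without the number, where none of the 4 negative ones, of the astrocyte list with Sst, Npy, Slc32a1 and Lhx6, passed, and that list with Pvalb passed there alone (r = 0.469, adjusted p = 0.0291, against 0.192 and 0.541 with the number left in). Pvalb had r = 0.601 and rho = 0.595 with the thalamus list (permutation p = 0.00023 and 4e-04, adjusted 0.0023 and 0.0057), with 0.547 without the 2 farthest mice, 0.606 and 0.630 within the diets, 0.447 on log2 CPM and 0.604 without the number (adjusted p = 0.00450). Its r with the oligodendrocyte list was 0.570 and its rho 0.537 (permutation p = 0.00017 and 0.00057, adjusted 0.0023 and 0.0057), with 0.599 without the 2 farthest mice, 0.598 and 0.564 within the diets, 0.461 on log2 CPM and 0.568 without the number (adjusted p = 0.0125). The thalamus list also passed with Syt2 (r = 0.485, permutation adjusted p = 0.0176) and with the 3 GABA genes on the TPM scale. For Gad1, Gad2 and Slc32a1 r was 0.408, 0.492 and 0.429 (adjusted p = 0.0378, 0.0133 and 0.0216). Without the number these were 0.478, 0.549 and 0.486 (adjusted p = 0.0291, 0.0199 and 0.0291). On log2 CPM they were 0.167, 0.324 and 0.204, and none of these 3 passed there. Sst had r = -0.605 and rho = -0.636 with the astrocyte list (permutation p = 0.00012 and 4e-05, adjusted 0.0023 and 0.0012), with -0.582 without the 2 farthest mice, -0.645 and -0.552 within the diets and -0.722 on log2 CPM, but -0.344 without the number (adjusted p = 0.110). The summed levels of the astrocyte list, led by Aldoc, were 1798 ± 211 and 1808 ± 194 TPM in control and PLX5622 mice, and those of the oligodendrocyte list 2055 ± 298 and 2150 ± 323 TPM. The part of these cells in the relations was not tested. With the thalamus list as a covariate, also added after the data had been seen, the diet difference of Pvalb was -0.09 (adjusted p = 0.387) and 0 of the 10 markers passed.

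The genes whose levels followed single markers most closely were taken as the 3 with the highest r among all genes tested, over the 47 mice, with no p and with the mouse number left in. These r are on log2(TPM + 1) with group means subtracted, and they are not given on log2 CPM. For Pvalb they were Kcng4, a potassium channel subunit (0.811), Paqr4 (0.779) and Nrep (0.766). For Vip they were Lamp5 (0.894), Gm11549 (0.865) and Glt8d2 (0.865). For Sst they were Atp6v1e1, a proton pump subunit (0.899), Tusc3 (0.896) and Nptn, a synaptic adhesion protein (0.880), all of them genes of wide expression. For Gad1 they were Kat6b, a histone acetyltransferase (0.869), Dhx8, an RNA helicase (0.862), and Shroom2 (0.858). The median r over all other genes tested was 0.203 for Pvalb, 0.179 for Vip, 0.210 for Sst and 0.315 for Gad1. On log2 CPM that median was -0.0013 for Pvalb, -0.027 for Vip, -0.010 for Sst and -0.022 for Gad1.

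The promoters of the markers were searched on both strands for motifs known from neuropeptide and clock genes. The windows reach from 250 bases before to 50 bases after the gene start in RefSeq's annotation of GRCm38.p6, and all 10 markers were matched, with 14 windows among the 32851 in the table. The cAMP response element TGACGTCA, which was first described in the somatostatin gene and is bound by CREB, was in 1.79% of all windows and, among the markers, in that of Sst. Its first 6 letters, TGACGT, were in 7.51% of all windows and in those of Sst and Vip. The E-box CACGTG, which CLOCK and BMAL1 bind, was in 7.15% of all windows and in that of Cck. A match is a description of the letters and not a binding site, and Cck had no rhythm past the threshold (adjusted p = 0.614). The windows are printed 5′ to 3′ on the strand of the gene, with the matched letters in capitals: Sst from chr16:23890795-23891094 (minus strand), Vip from chr10:5638968-5639267 (plus strand) and Cck from chr9:121495645-121495944 (minus strand).
Sst: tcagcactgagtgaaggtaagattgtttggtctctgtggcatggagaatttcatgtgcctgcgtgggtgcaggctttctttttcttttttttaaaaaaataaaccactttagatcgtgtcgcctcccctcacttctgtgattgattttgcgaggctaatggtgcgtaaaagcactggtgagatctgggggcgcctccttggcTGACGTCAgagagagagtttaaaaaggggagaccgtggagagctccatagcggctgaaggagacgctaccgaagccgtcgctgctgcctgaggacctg
Vip: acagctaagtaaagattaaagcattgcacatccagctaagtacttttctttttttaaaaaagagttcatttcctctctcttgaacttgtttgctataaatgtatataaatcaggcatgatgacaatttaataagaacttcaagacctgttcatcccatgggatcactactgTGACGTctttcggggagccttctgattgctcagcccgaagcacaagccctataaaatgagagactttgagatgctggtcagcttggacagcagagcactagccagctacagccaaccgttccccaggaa
Cck: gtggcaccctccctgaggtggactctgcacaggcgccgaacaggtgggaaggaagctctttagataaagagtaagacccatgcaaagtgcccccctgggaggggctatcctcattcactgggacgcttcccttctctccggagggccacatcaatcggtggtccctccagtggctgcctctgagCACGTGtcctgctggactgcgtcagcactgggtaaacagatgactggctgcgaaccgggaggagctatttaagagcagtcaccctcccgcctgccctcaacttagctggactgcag
The matches start 48, 79 and 66 bases before the gene start in RefSeq. For Sst that start lies inside the gene as GENCODE gives it, and so does the match, while for Vip and Cck the starts agree.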

How the data were processed

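The authors mapped reads to GRCm38.p6 with STAR 2.7.0f and deposited TPM values computed with Salmon 1.0.0. A second deposited table is named for FPKM but holds whole numbers per gene, for which the labels name STAR and featureCounts without a role, and these numbers were used as counts. The 10 members and the 15 further lists were chosen with earlier results of these data known. Tests used log2(TPM + 1) with a pseudocount of 1, a filter that kept genes averaging 1 TPM or more, limma 3.58.1 in R 4.3.3 and an adjusted p threshold of 0.05 (Benjamini-Hochberg). Fold changes on this scale understate those of low genes. JTK_CYCLE was written for this purpose, with 6 phases and a 24-h period, and was tested on simulated data, as were the limma fits. Alternatives used edgeR 4.0.16, DESeq2 1.42.0, other filters, scalings and covariates, and the omission of each mouse. Correlations used 100000 two-sided permutations within groups. Of each list, the genes past the threshold for diet or rhythm were named, or otherwise the 2 with the highest mean, and for Pvalb, Sst, Vip and Gad1 the 3 genes with the highest r. Some genes that this rule takes are not reported here. Overlapping genes were named for their position after values were seen. Gene positions are from GENCODE M21.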

Additional observations from a re-analysis of the deposited data

Results flagged for a closer look

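Single mice that stood far from the other 3 of their group were looked for in the 110 groups of 4 (10 markers in 11 groups), by the gap to the nearest mouse relative to the group's range. There were 9, and chance gives about 1 in 20 groups, or 5.5. Pvalb was 80.3 TPM in control mouse 1 at ZT6, where the others had 120 to 126. Syt2 was 9.92 TPM in PLX5622 mouse 1 at ZT2, against 19.3 to 21.03. Vip was 21.9 TPM in PLX5622 mouse 1 at ZT6, against 30.9 to 31.5, and 16.9 TPM in PLX5622 mouse 2 at ZT10, against 30.9 to 33.6. Cck was 707 TPM in PLX5622 mouse 2 at ZT2, against 858 to 881. Gad1 was 82.6 TPM in control mouse 3 at ZT18, against 120 to 124, and 105 TPM in control mouse 1 at ZT22, against 120 to 122. Slc32a1 was 66.7 TPM in PLX5622 mouse 3 at ZT22, against 48.1 to 51.2, and Lhx6 was 9.79 TPM in PLX5622 mouse 3 at ZT6, against 6.83 to 7.06. In TPM 7 of the 9 values were low. In the counts, scaled to the library total as CPM, 7 of the 9 were at the same end of their group, and 1 of the 9, Vip in PLX5622 mouse 1 at ZT6 (24.5 CPM, against 32.3 to 33.6), stood as far apart. Of the other 2, Gad1 in control mouse 1 at ZT22 was the highest of its group (280, against 262 to 279) and Lhx6 in PLX5622 mouse 3 at ZT6 the lowest (14.7, against 15.3 to 18.7), so the counts do not bear out these flags.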

How the results depend on the processing

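Of the diet, rhythm and interaction calls for the 10 markers, which were all 0, the diet count alone moved: 2 passed with 3 residual principal components as covariates (Vip and Sst), and the cause was not tested. Leaving out single mice gave 0 markers in every comparison. The number of genes called for diet (503) was 1679 with the components, 1155 with DESeq2, 1020 with edgeR and 298 with a minimum of 5 TPM (fewer genes tested), and 429 to 635 without single mice. The share of higher calls was 25.2% as reported, 61.7% with the components and 36.6% with the thalamus covariate. The rhythm count over both diets (767) was 2696 with the components, 2336 with DESeq2, 2007 with edgeR, 1609 with time as a factor, 1336 with median-of-ratios scaling and 620 to 877 without single mice. The interaction count (0) was 3 with the components. JTK_CYCLE counts were 25 with median-of-ratios scaling and 36 with limma's F test in control mice, and 22 without a filter, 87 with that scaling and 135 with limma in PLX5622 mice. Without single mice they ran from 3 (without mouse 2 at ZT10 or ZT14) to 10 (without mouse 2 at ZT22) in control mice, and from 18 to 52 (without mouse 3 at ZT18) in PLX5622 mice, where mice 3 and 4 at ZT6 (20 and 18), 1, 3 and 4 at ZT10 (19, 20 and 21) and 2 and 3 at ZT14 (18 each) also moved it.

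Mouse numbers repeat across groups but were not taken to pair the mice, since the labels tie them to nothing shared. Correlations of same-numbered mice fell as low as -0.247 over 253 pairs, but a lowest value cannot decide whether numbers pair mice. The median of these correlations was 0.0546, against -0.0189 for different numbers, and 24 of 47 mice correlated best with their own of the 4 numbers, a hint from the data that the number goes with something shared. With the number as a replicate block, 578 genes were called for diet and 1043 for rhythm, no marker was called, and the block changed none of the markers' calls for diet or time. The markers' mean deviation from their group was negative for 9 of 10 in mice numbered 1 (median -0.14) and 2 (median -0.16), and above 0 for 8 of 10 in mice numbered 3 (median 0.10) and 9 of 10 in those numbered 4 (median 0.23). These shares are given without those over all genes tested. With the replicate block in the correlations, added after the data had been seen, 9 in place of 26 marker pairs, 4 in place of 10 list relations and 8 in place of 11 added ones passed, 7 of the 8 among the 11 and 1 new (Pvalb with the astrocyte list). Values of r that changed sign there, none past the threshold, were those of Pvalb with Npy (-0.0148) and Lhx6 (0.00495), Syt2 with Npy (-0.118) and Vip (-0.0302), Vip with Gad2 (-0.0712), Slc32a1 (-0.0637) and Lhx6 (-0.193), Cck with Gad2 (-0.243), Slc32a1 (-0.133) and Lhx6 (-0.122), the excitatory list with Gad2 (-0.0942), Slc32a1 (-0.131) and Lhx6 (-0.0478), the thalamus list with Cck (-0.0530) and the astrocyte list with Vip (0.113), Cck (0.311) and Gad1 (0.126).

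The log2 difference of Slc32a1 ran from -0.0404 to 0.00852 without single mice, positive without control mouse 4 at ZT2, ZT10 or ZT18 or PLX5622 mouse 2 or 3 at ZT18. That of Lhx6 was -0.0137 with edgeR and -0.01096 with DESeq2. Without single mice, the log2 difference ran from 0.0339 to 0.0963 for Lhx6 and from 0.0250 to 0.0888 for Npy. It ran from -0.0849 to -0.0316 for Cck and from -0.199 to -0.0972 for Syt2, the last without control mouse 2 at ZT10. On log2 CPM, 17 in place of 26 marker pairs and 6 in place of 10 list relations passed. Values of r that turned negative there, none of which had passed on log2 CPM unless stated, were those of Pvalb with Sst (-0.0944), Npy (-0.121), Vip (-0.0838), Gad1 (-0.0778), Gad2 (-0.220) and Slc32a1 (-0.152), Syt2 with Lhx6 (-0.214), Vip with Gad2 (-0.0734) and Slc32a1 (-0.0112), and Cck with Gad2 (-0.252) and Slc32a1 (-0.0488). With the excitatory list they were those of Pvalb (-0.0696), Gad1 (-0.0487), Gad2 (-0.344), Slc32a1 (-0.218) and Lhx6 (-0.0228), of which Gad1 had passed on the TPM scale. With the thalamus list they were those of Sst (-0.187), Vip (-0.186), Cck (-0.291) and Lhx6 (-0.284), with the oligodendrocyte list those of Sst (-0.128), Vip (-0.318), Gad1 (-0.183) and Lhx6 (-0.285), and with the astrocyte list that of Syt2 (-0.464, which passed). The cause was not tested. Every marker had a mean count of 365 or more, so the spread between libraries, more than counting, limits these values, and at 23 and 24 mice the printed intervals bound the diet differences. That spread holds differences between mice and any from the TPM quantification, and their parts were not tested. PLX5622 libraries were deeper, and the part of depth was not tested.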
